A study of Rattus norvegicus with 115 samples.

Results

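The brain hemisphere opposite a 9L tumour was compared 8 d and 6 h after broad-beam X-ray irradiation, on 4 arrays of 8 d (rats 54 to 57) and 6 arrays of 6 h (rats 44 to 49). The arrays were chosen by their titles and are 10 of 115 in the series. All rats were of the Fisher strain and carried 9L cells, a rat glioblastoma line, of which 100000 had been injected in the right caudate nucleus. Irradiation followed 10 days after implantation with a broad beam (BB) of 17.4 Gy, so that every rat of both groups was tumour-bearing and irradiated. Tissue of the contralateral region, labelled as normal brain, was resected and its total RNA hybridised to 1 Affymetrix rat array per rat. Contralateral brain of the same series served for setting time changes side by side: BB at 48 h (3 arrays) and 15 d (4), microbeam radiation therapy (MRT, with a dose of 400 Gy per microbeam and 18 Gy per valley) at 8 d (6) and 6 h (9), and tumour-bearing rats without irradiation at 8 d (4) and 6 h (5). Fits against MRT and unirradiated rats used all 56 contralateral arrays. They thus also held MRT arrays of 48 h and 15 d and unirradiated arrays of 48 h, which add to the estimated spread. Age and sex of the rats are not given in the sources used here. The 8 d rats had carried their tumour longer than the 6 h rats, and time since irradiation and time with a tumour cannot be told apart within the BB groups.

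Ionising radiation breaks DNA and stabilises the transcription factor p53, which switches on genes of cell-cycle arrest, apoptosis and its own feedback. In brain it also starts an early inflammatory response, in which NF-kB and interferon signalling raise chemokines, endothelial adhesion molecules and acute-phase genes in endothelium, microglia and astrocytes. Microglia are the resident phagocytes of the brain, and the endothelium of brain vessels carries the transporters of the blood-brain barrier. Values below are log2 of the deposited intensities, and a difference is 8 d minus 6 h on that scale with its standard error. A gene was called at a Benjamini-Hochberg adjusted p under 0.05 from limma's moderated test over 31042 probe sets, and is represented by its brightest probe set. Values at 8 d stand in the order of rats 54, 55, 56 and 57, and values at 6 h are the lowest, the median and the highest of the 6 arrays.

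Of 14217 genes, 576 were higher at 8 d (4.05%) and 522 lower (3.67%), 1098 in all (7.72%), and the median difference of all genes was 0.006. Counts of called genes in the lists below are to be read beside these shares. In 398 of the higher and 359 of the lower genes the 4 arrays of 8 d and the 6 of 6 h did not overlap, which held of 4.09% (higher) and 3.57% (lower) of all genes. Among called genes 70 rose and 58 fell by more than 1 log2, while 5 rose and 15 fell by more than 2 log2. Chemokines, an endothelial selectin and interferon-response genes were among the largest falls, and genes of the phagocyte, endothelial and antigen presentation lists among the largest rises. Over all probe sets 2130 were called (6.86%), 1184 higher (3.81%) and 946 lower (3.05%). With every array shifted to a common median 2309 were called, 778 higher and 1531 lower, so that the balance of directions depends on the scaling. In bulk tissue, fewer cells of a type and less RNA per cell cannot be told apart.

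**Figure D1:**
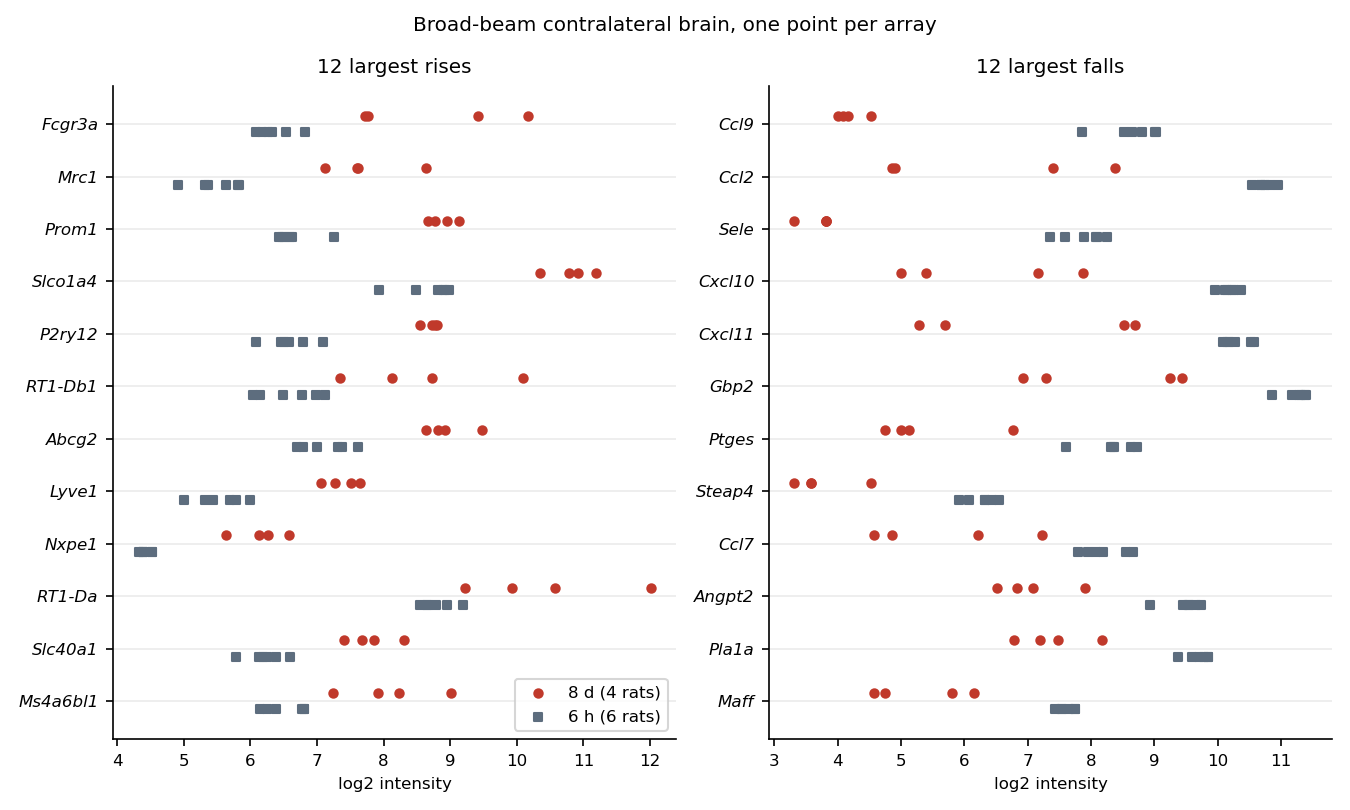
Log2 intensity on each array for the 12 largest rises (left) and the 12 largest falls (right) among called genes without overlap. Circles are the 4 rats of 8 d and squares the 6 rats of 6 h; Ccl9 and Sele keep the groups far apart, while Fcgr3a, Ccl2, Cxcl10, Cxcl11 and Gbp2 have a pair of 8 d rats apart from the other pair.

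The 8 d arrays were not alike. The mean of the 38 measured interferon-response genes was 7.16, 8.29, 7.11 and 8.42 on the arrays of rats 54, 55, 56 and 57, against 8.14 to 8.38 on the 6 h arrays, so rats 55 and 57 stood at the 6 h level. Antigen presentation genes averaged 8.04, 9.06, 7.88 and 8.70 at 8 d, against 7.95 to 8.31 at 6 h. Mitosis genes averaged 5.86, 6.53, 5.77 and 7.33 at 8 d, against 5.53 to 5.70 at 6 h, and a list of genes typical of 9L tumours averaged 5.61, 6.58, 5.77 and 7.55, against 6.32 to 6.59. The striatal list averaged 9.82 to 10.73 at 8 d, against 8.57 to 10.46 at 6 h, and the choroid plexus list 7.22 to 8.59, against 6.98 to 8.35, so both lists spread widely within each group. The difference between 3' and 5' control probe sets of Gapdh, a sign of RNA quality, was 0.20 to 0.70 at 8 d and 0.15 to 0.65 at 6 h. The tissue carried the neuronal markers its label implies: the pan-neuronal list averaged 11.82 ± 0.11 at 8 d and 11.85 ± 0.13 at 6 h (SD). Without rats 55 and 57, 520 probe sets were called, of which 450 were among the 2130. Results that rest on these rats are given with and without them.

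**Figure D2:**
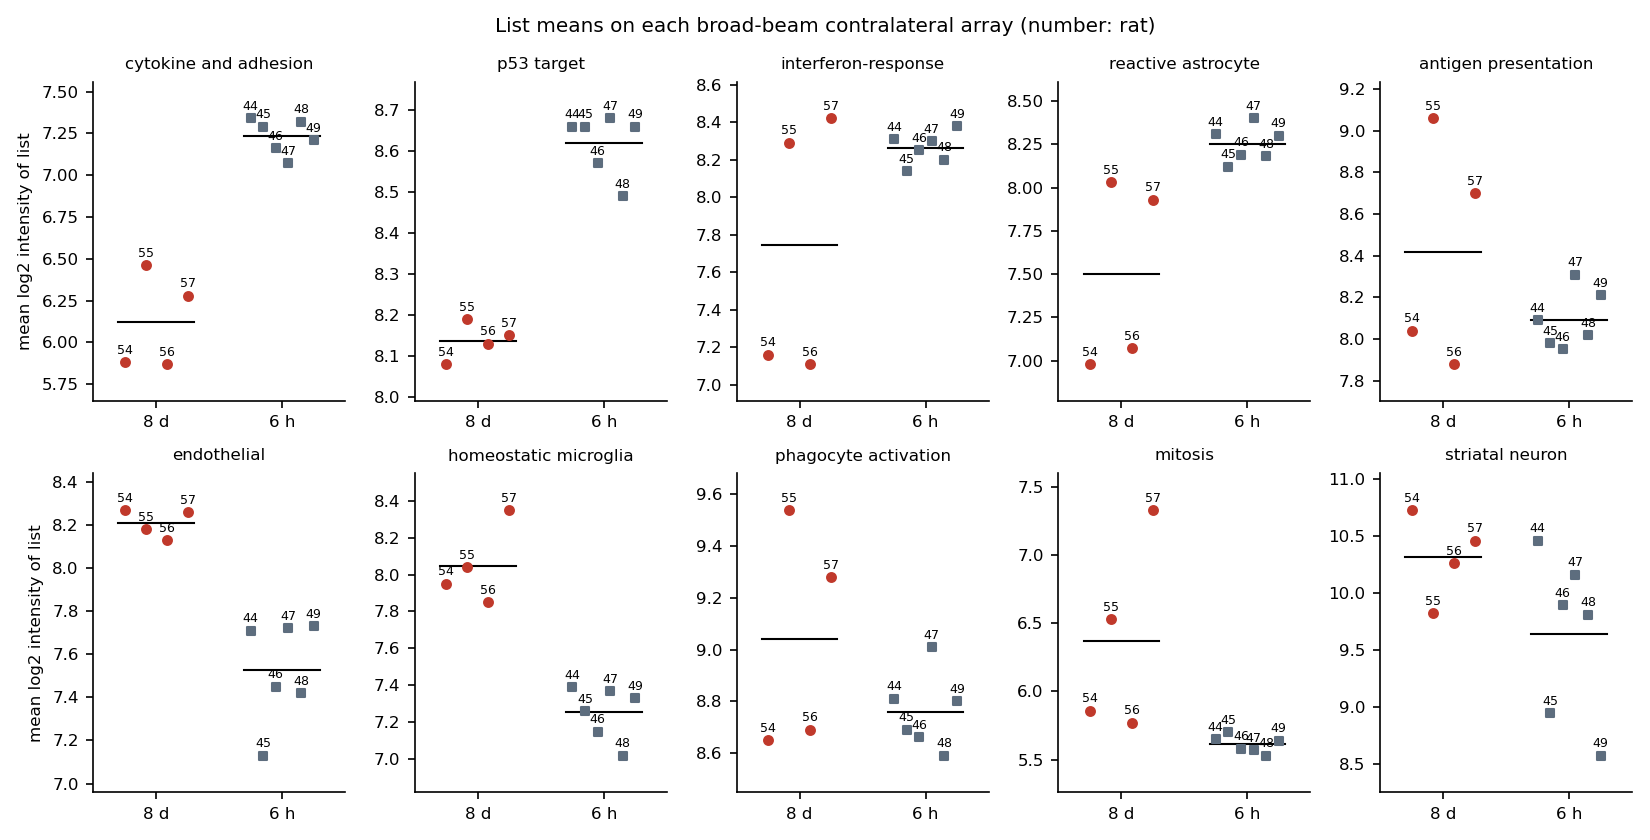
Mean log2 intensity of 10 gene lists on each array, 8 d left of 6 h, with the rat's number at each point and the group mean as a line. The p53, cytokine, endothelial and microglia lists keep the groups apart, while the interferon, antigen presentation, phagocyte and mitosis lists have rats 55 and 57 above rats 54 and 56.

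The cytokine and adhesion list gave the steepest decline. Of its 25 measured genes 15 fell (522 of all genes, 3.67%), 0 rose, and the list median was -0.92, against 0.006 over all genes. Ccl2, the chemokine that draws monocytes, had log2 intensities of 4.86, 8.38, 4.91 and 7.40 at 8 d, against 10.54, 10.72 and 10.95 at 6 h. Its difference was -4.35 ± 0.59 (adjusted p = 0.00029), and the groups did not overlap although rats 55 and 57 stood above the other 8 d rats. Sele (E-selectin), which endothelium displays to capture leukocytes, had 3.32, 3.81, 3.81 and 3.81 at 8 d, against 7.35, 7.99 and 8.25 at 6 h. Its difference was -4.19 ± 0.15 (adjusted p = 2.7e-11). Ccl9, a CC chemokine outside the list, had 4.52, 4.09, 4.17 and 4.00 at 8 d, against 7.86, 8.73 and 9.03 at 6 h, a difference of -4.45 ± 0.19 (adjusted p = 2e-10). The 8 d values of Sele and Ccl9, and those of Ccl2 in rats 54 and 56, lay below the lower quartile of their arrays (intensities of 37 or 38), so the sizes of these differences are uncertain.

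Ccl7, a further monocyte chemokine, had 4.58, 7.23, 4.86 and 6.21 at 8 d, against 7.79, 8.14 and 8.66 at 6 h, a difference of -2.49 ± 0.45 (adjusted p = 0.0034). The adhesion molecules Vcam1 and Icam1, ligands of leukocyte integrins, fell by 1.24 ± 0.06 (adjusted p = 8e-10) and 1.78 ± 0.20 (adjusted p = 4.7e-05). Vcam1 was the most even of these genes, with 9.80, 10.02, 9.85 and 9.89 at 8 d, against 11.07, 11.11 and 11.28 at 6 h. Birc3, an inhibitor of apoptosis and a classical NF-kB target, had 6.02, 6.57, 6.15 and 6.21 at 8 d, against 8.00, 8.12 and 8.40 at 6 h, a difference of -1.90 ± 0.15 (adjusted p = 9.7e-07). Nfkbia and Tnfaip3 encode proteins that shut NF-kB signalling off, and Nfkb2 a subunit of the factor. Nfkbia had 9.07, 8.97, 8.25 and 9.19 at 8 d, against 10.01, 10.26 and 10.57 at 6 h, a difference of -1.39 ± 0.18 (adjusted p = 0.0002). Tnfaip3 had 8.32, 8.17, 8.02 and 8.34 at 8 d, against 8.97, 9.15 and 9.28 at 6 h, a difference of -0.93 ± 0.12 (adjusted p = 0.00013). Nfkb2 had 5.73, 6.38, 5.58 and 6.52 at 8 d, against 6.87, 7.06 and 7.38 at 6 h, a difference of -1.05 ± 0.26 (adjusted p = 0.022). None of these groups overlapped, and the call of Nfkb2 was lost without rat 54. Cxcl1, Cxcl2 and Ccl20, chemokines for neutrophils and lymphocytes, fell by 1.58 ± 0.29, 1.18 ± 0.18 and 1.72 ± 0.18. Il1b, the inflammatory cytokine interleukin-1 beta, had 5.88, 7.00, 6.39 and 6.71 at 8 d, against 7.04, 7.47 and 7.66 at 6 h, a difference of -0.89 ± 0.23 (adjusted p = 0.031) that lost its call in 7 of 24 alternatives, among them leaving out rat 44, 45, 48, 54 or 57. Il6 was not called, at -0.25 ± 0.22 (adjusted p = 0.54). Ptges, the inducible prostaglandin E synthase, had 5.00, 6.77, 4.75 and 5.13 at 8 d, against 7.60, 8.36 and 8.72 at 6 h, a difference of -2.92 ± 0.30 (adjusted p = 2e-05). A second probe set of Ptges fell by 1.19 (adjusted p = 3.3e-05). Ptges in rats 54, 56 and 57 and Ccl7 in rats 54 and 56 lay below the lower quartile of their arrays, so these sizes are uncertain too. Pla1a, a phospholipase of phosphatidylserine, differed by -2.29 ± 0.24 (adjusted p = 2e-05), and Maff, a small Maf transcription factor, by -2.28 ± 0.30 (adjusted p = 0.00018). The neutrophil alarmins S100a9 and S100a8 fell by 1.70 ± 0.22 and 0.75 ± 0.14, the only 2 called of 8 neutrophil genes. Ccl5, the one called gene of 19 of the T and NK cell list, fell by 2.12 ± 0.23 (adjusted p = 2.6e-05). As 3.67% of all genes were lower, that count says nothing about the list.

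Promoters of the list were searched for the short motif that NF-kB recognises. RefSeq promoters (build GRCr8) were matched by symbol for 17 of the 25 genes, and the 250 bases before the start were read on both strands for the motif, spelled GGGA, any base, then TTTCC. It stood in 5 of the 17 (29.4%), against 105 of 33469 promoters in all (0.314%). The list was written by hand and holds known NF-kB targets, so an excess was favoured in advance. List genes were counted once each and the total by promoter entry. Of the 11 called genes with a promoter 4 held it, Nfkbia, Tnfaip3, Cxcl1 and Nfkb2, and of the 6 not called 1, Il6. The windows of these 4 called genes, 100 bases each with the match in capitals (read on either strand), are at chr6:78597073-78597172, minus strand, at chr1:15543992-15544091, minus strand, at chr14:17479351-17479450, minus strand, and at chr1:255108274-255108373, plus strand.
Nfkbia: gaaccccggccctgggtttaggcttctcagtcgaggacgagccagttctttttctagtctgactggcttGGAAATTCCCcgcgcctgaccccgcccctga
Tnfaip3: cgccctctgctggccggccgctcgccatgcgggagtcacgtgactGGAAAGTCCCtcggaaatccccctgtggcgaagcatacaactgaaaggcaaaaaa
Cxcl1: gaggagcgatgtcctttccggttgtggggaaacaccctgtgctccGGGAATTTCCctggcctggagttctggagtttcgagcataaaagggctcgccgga
Nfkb2: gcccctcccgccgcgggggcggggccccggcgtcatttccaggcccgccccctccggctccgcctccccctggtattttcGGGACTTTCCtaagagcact
The matches of Nfkbia and Tnfaip3 read on the strand opposite to the gene and begin 31 and 67 bases before the start. Those of Cxcl1 and Nfkb2 read on the gene's strand and begin 84 and 20 bases before it. A match describes the letters only and is no evidence of binding.

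Genes of the interferon response fell in 8 of 38 cases (against 3.67% of all genes) and rose in 0, with a list median of -0.22. Rats 55 and 57 were at the 6 h level in the list as a whole. Cxcl10, a chemokine that draws activated T cells, had 5.00, 7.17, 5.39 and 7.88 at 8 d, against 9.95, 10.19 and 10.36 at 6 h, a difference of -3.81 ± 0.47 (adjusted p = 0.00011). Cxcl11, which binds the same receptor, had 5.70, 8.70, 5.29 and 8.52 at 8 d, against 10.08, 10.23 and 10.57 at 6 h, a difference of -3.24 ± 0.60 (adjusted p = 0.004). Gbp2, an interferon-induced guanylate-binding protein, had 6.93, 9.25, 7.29 and 9.43 at 8 d, against 10.86, 11.30 and 11.40 at 6 h, a difference of -3.01 ± 0.47 (adjusted p = 0.00095). In each of these 3 genes every 8 d rat lay below every 6 h rat, and rats 55 and 57 lay above rats 54 and 56. Ifit3, an antiviral effector, had 4.81, 6.69, 5.58 and 7.07 at 8 d, against 7.40, 7.59 and 8.09 at 6 h, a difference of -1.64 ± 0.32 (adjusted p = 0.0062). Cxcl10 and Ifit3 in rat 54 lay below the lower quartile of that array, which makes the sizes of their differences uncertain. Ifitm3, which blocks entry of viruses, differed by -1.01 ± 0.24 (adjusted p = 0.017) with overlapping groups and lost its call without rat 54. Rsad2 (viperin), with 7.94, 9.60, 8.16 and 10.24 at 8 d, against 9.85, 10.08 and 10.36 at 6 h, was called at adjusted p = 0.049, and rat 57 matched the 6 h level (groups overlapping). That call was lost in 15 of 24 alternatives, among them leaving out any 1 of the 6 h rats, rat 54 or rat 56. Without rats 55 and 57 the list held 20 lower genes and a median of -0.71, and without rat 54 it held 4.

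The interferon-stimulated response element was searched as TTTC, any pair of bases, then TTTC in the same 250 bases, on both strands. It stood in 18 of 30 promoters of the list (60%), against 1140 of 33469 in all (3.41%). The list was written as one of interferon-response genes, so this excess too was favoured in advance, and the counting was the same. Of the 8 called genes 7 held it, and of the 22 not called 11. No match of one motif overlapped a match of the other in the promoters of the genes listed. Windows of 100 bases are shown for Gbp2 and Ifit3, chr2:234005627-234005726, plus strand and chr1:241527226-241527325, plus strand, with the match in capitals, beginning 31 and 44 bases before the start.
Gbp2: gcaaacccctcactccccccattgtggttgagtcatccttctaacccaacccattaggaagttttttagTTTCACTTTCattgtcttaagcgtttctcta
Ifit3: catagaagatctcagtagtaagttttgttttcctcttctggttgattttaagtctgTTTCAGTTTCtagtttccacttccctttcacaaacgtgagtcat

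Of 25 antigen presentation genes 6 rose (576 of all genes, 4.05%), 0 fell, and the list median was -0.04. RT1-Db1 and RT1-Da, chains of the rat class II molecule that presents peptides to helper T cells, were both higher. RT1-Db1 had 8.12, 10.09, 7.35 and 8.73 at 8 d, against 6.04, 6.63 and 7.12 at 6 h, a difference of 1.98 ± 0.48 (adjusted p = 0.019). RT1-Da had 9.93, 12.01, 9.22 and 10.58 at 8 d, against 8.55, 8.72 and 9.19 at 6 h, a difference of 1.64 ± 0.44 (adjusted p = 0.032). Rat 55 was the highest in both, and neither overlapped. RT1-Bb, a further class II chain, differed by 1.95 ± 0.44 (adjusted p = 0.013), and RT1-DMb, part of the peptide loader of class II, by 1.06 ± 0.22 (adjusted p = 0.0092). A second probe set of RT1-Db1 was higher by 1.27 and not called, and one of RT1-Bb showed 0.02. RT1-T24-4, annotated as a class I gene, differed by 0.76 ± 0.15 (adjusted p = 0.0053). These calls rest on rats 55 and 57: without rat 55 the list had 2 higher genes, without rat 57 also 2, and without both 0 higher and 4 lower. RT1-Db1 and RT1-Bb were not called without rat 55 or without rat 57. RT1-Da lost its call in 11 of 24 alternatives, 7 of which left out 1 rat (44, 45, 46, 48, 54, 55 or 57).

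**Figure D3:**
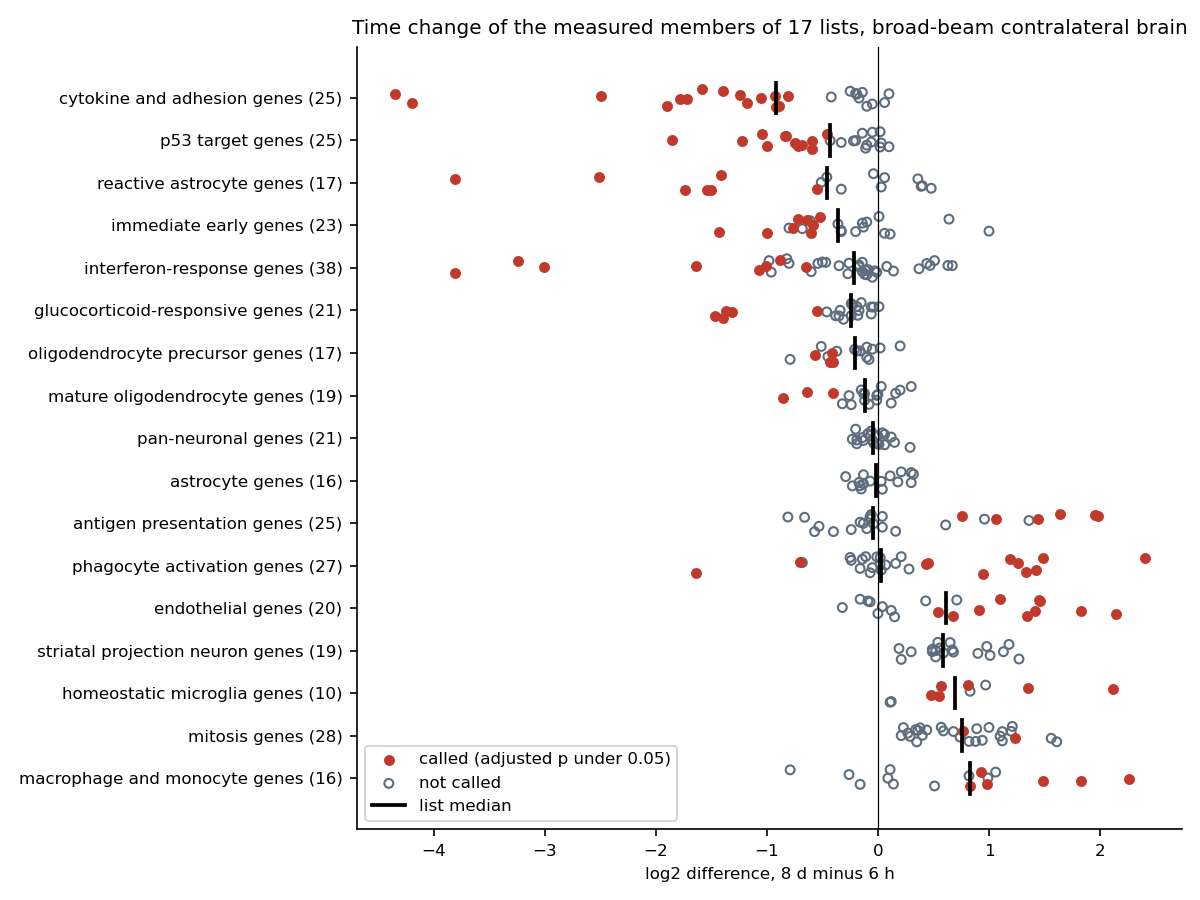
Log2 difference, 8 d minus 6 h, of each measured member of 17 lists (number of members in parentheses). Filled points were called, open points were not, and the bar is the list median, which runs from -0.92 for cytokine and adhesion genes to 0.82 for macrophage and monocyte genes.

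Targets of p53 were lower at 8 d in 12 of 25 cases (against 3.67% of all genes) and higher in 0, with a median of -0.43. The count stayed at 12 without rats 55 and 57 and ran from 9 to 14 over 24 alternatives. Fas, the death receptor, had 5.98, 6.11, 6.58 and 6.17 at 8 d, against 7.90, 8.08 and 8.18 at 6 h, a 3.59-fold lower level with a difference of -1.85 ± 0.12 (adjusted p = 9.9e-08). A second probe set of Fas fell by 0.77 (adjusted p = 0.0012), and another, dimmer one showed -0.19 (adjusted p = 0.20). Aen, an apoptosis-enhancing nuclease, had 8.09, 8.14, 8.04 and 8.19 at 8 d, against 9.03, 9.18 and 9.25 at 6 h, a difference of -1.04 ± 0.07 (adjusted p = 2.8e-07). Ccng1 (cyclin G1), part of the p53 feedback, had 11.63, 11.71, 11.90 and 11.59 at 8 d, against 12.40, 12.54 and 12.66 at 6 h, a difference of -0.83 ± 0.06 (adjusted p = 3.9e-07). Cdkn1a (p21), the inhibitor that halts the cell cycle, had 10.05, 10.21, 9.89 and 10.36 at 8 d, against 10.52, 10.77 and 11.23 at 6 h, a difference of -0.68 ± 0.12 (adjusted p = 0.0034). Mdm2, the ligase that degrades p53, had 9.87, 10.06, 9.77 and 10.06 at 8 d, against 10.42, 10.53 and 10.65 at 6 h, a difference of -0.59 ± 0.09 (adjusted p = 0.00082). All 5 genes kept the groups apart in every rat, and Ccng1 and Cdkn1a lost their calls in the fit of all 56 contralateral arrays.

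The levels of Cdkn1a and Fas were still above those of rats without irradiation on the deposited scale. Cdkn1a averaged 10.12 ± 0.20 at 8 d after BB (SD, n = 4), against 8.50 ± 0.59 in unirradiated rats of that time (SD, n = 4), and Fas 6.21 ± 0.26, against 5.15 ± 0.40. The processing notes of the BB arrays differ from those of the unirradiated arrays, so these differences of level cannot be told apart from processing and got no test. The DNA repair enzyme Mgmt, which removes alkyl groups from guanine, went against the p53 list. It had 7.86, 7.82, 7.89 and 7.95 at 8 d, against 6.54, 6.75 and 7.21 at 6 h, a 2.07-fold rise with a difference of 1.05 ± 0.13 (adjusted p = 0.00011). Over time after BB it averaged 6.83 ± 0.25 at 6 h, 8.57 ± 0.32 at 48 h, 7.88 ± 0.05 at 8 d and 7.25 ± 0.09 at 15 d (SD), so it peaked at 48 h among the 4 times. Osgin1 and Gclm, targets of the antioxidant factor Nrf2, fell by 0.61 ± 0.13 and 0.39 ± 0.10, and the call of Gclm was lost without rat 44, 45, 46, 54 or 55. They and Mgmt were the 3 called of 11 sustained radiation-response enzymes.

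Endothelial genes rose in 10 of 20 cases (against 4.05% of all genes) and fell in 0, with a median of 0.61. The number of higher genes ran from 8 to 11 over 24 alternatives, and was 9 without rats 55 and 57. Slco1a4, a transporter of organic anions at the blood-brain barrier, had 11.19, 10.35, 10.79 and 10.92 at 8 d, against 7.93, 8.86 and 8.98 at 6 h, a 4.41-fold rise with a difference of 2.14 ± 0.18 (adjusted p = 2.1e-06). Slco1c1, which carries thyroid hormone into brain, had 10.05, 9.74, 10.22 and 10.05 at 8 d, against 8.70, 8.93 and 9.10 at 6 h, a difference of 1.10 ± 0.11 (adjusted p = 1.5e-05). Abcg2, an efflux pump of the barrier, had 9.48, 8.81, 8.64 and 8.93 at 8 d, against 6.70, 7.16 and 7.62 at 6 h, a difference of 1.83 ± 0.20 (adjusted p = 3.3e-05). Abcb1a (P-glycoprotein), another such pump, had 9.06, 8.82, 8.72 and 8.89 at 8 d, against 6.69, 7.68 and 7.79 at 6 h, a difference of 1.34 ± 0.17 (adjusted p = 0.00018). In all 4 transporters every 8 d rat lay above every 6 h rat. Tek (Tie2), the endothelial receptor of angiopoietins, had 8.56, 8.41, 8.46 and 8.60 at 8 d, against 6.44, 7.14 and 7.32 at 6 h, a difference of 1.45 ± 0.14 (adjusted p = 7.6e-06). Angpt2, the angiopoietin that antagonises Tek and is released by activated endothelium, moved the other way, with 6.83, 7.91, 6.51 and 7.08 at 8 d, against 8.93, 9.53 and 9.73 at 6 h and a difference of -2.39 ± 0.25 (adjusted p = 2.6e-05).

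At 6 h rat 45 was the lowest in Slco1a4, Tek, Abcb1a and Angpt2, and the endothelial list averaged 7.13 in that rat, against 7.42 to 7.73 in the other 6 h rats and 8.13 to 8.27 at 8 d. Pecam1, a marker of all endothelium, was not called, at 0.04 ± 0.14 (adjusted p = 0.9), nor was the tight junction gene Cldn5, at 0.43 ± 0.15 (adjusted p = 0.094). Outside the endothelial list, Prom1 (prominin-1), a membrane protein of cell protrusions, had 9.14, 8.77, 8.67 and 8.96 at 8 d, against 6.43, 6.55 and 7.26 at 6 h, a difference of 2.24 ± 0.14 (adjusted p = 4.5e-08). Slc40a1 (ferroportin), the iron exporter, differed by 1.59 ± 0.17 (adjusted p = 3.6e-05), and Nxpe1, for which no role is given here, by 1.73 ± 0.15 (adjusted p = 2.4e-06). Other probe sets of Slc40a1 rose less, by 0.78 and 0.75. Of 14 pericyte and smooth muscle genes 3 rose and 3 fell. Abcc9, a subunit of the potassium channel of pericytes, rose by 1.30 ± 0.13, although a dim second probe set showed -0.02. Mcam and Des, an adhesion molecule and the filament of muscle cells, fell by 0.74 ± 0.11 and 0.73 ± 0.14.

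Homeostatic microglia genes rose in 6 of 10 cases (against 4.05% of all genes) and fell in 0, with a median of 0.69. P2ry12, the purine receptor that guides microglial processes, had 8.72, 8.80, 8.55 and 8.77 at 8 d, against 6.09, 6.55 and 7.09 at 6 h, a 4.36-fold rise with a difference of 2.12 ± 0.16 (adjusted p = 4e-07). Its 4 values of 8 d lay close together, far from those of 6 h. A second, dimmer probe set of P2ry12 rose by 1.07 (adjusted p = 0.00076). Fcrl2, an Fc receptor-like gene, and Sall1, a transcription factor of microglia, rose by 1.35 ± 0.19 (adjusted p = 0.00042) and 0.55 ± 0.09 (adjusted p = 0.0014). Without rats 55 and 57 the list held 3 higher genes. Macrophage and monocyte genes rose in 6 of 16 cases (against 4.05% of all genes) with a median of 0.82, and in 5 without those rats. Mrc1, Lyve1 and Stab1 are receptors of macrophages at vessels and borders of the brain. Mrc1 had 7.61, 8.64, 7.12 and 7.60 at 8 d, against 4.91, 5.50 and 5.83 at 6 h, a difference of 2.26 ± 0.33 (adjusted p = 0.00056). Lyve1 had 7.65, 7.27, 7.06 and 7.51 at 8 d, against 5.00, 5.56 and 6.00 at 6 h, a difference of 1.83 ± 0.18 (adjusted p = 1.3e-05). Stab1 had 6.07, 6.51, 6.09 and 6.25 at 8 d, against 4.46, 4.73 and 5.29 at 6 h, a difference of 1.49 ± 0.19 (adjusted p = 0.00018). In none of them did the groups overlap. All 6 h values of Stab1 except that of rat 47, and the lowest of Mrc1 and Lyve1, lay below the lower quartile of their arrays. The sizes of these differences are therefore uncertain.

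Phagocyte activation genes were mixed: 9 of 27 rose and 2 fell (against 4.05% and 3.67% of all genes), with a median of 0.03. Fcgr3a, a receptor for antibody, was the largest rise of all genes, with 7.72, 10.17, 7.77 and 9.42 at 8 d, against 6.09, 6.29 and 6.82 at 6 h and a difference of 2.40 ± 0.43 (adjusted p = 0.0033). Ms4a6bl1, of a family of membrane proteins of myeloid cells, differed by 1.58 ± 0.30 (adjusted p = 0.0053), and Clec7a (dectin-1), a receptor for fungal glucans, by 1.42 ± 0.27 (adjusted p = 0.0045). All 3 lost their calls without rats 55 and 57, where the list held 0 higher and 3 lower genes, and without rat 57 alone 5 were higher. A second, dimmer probe set of Ms4a6bl1 differed by 0.32 and was not called (adjusted p = 0.28). Cd14, the co-receptor for bacterial lipopolysaccharide, fell by 1.64 ± 0.28 and the tetraspanin Cd9 by 0.70 ± 0.11. Gpnmb, Spp1 and Lgals3, genes of lipid-laden phagocytes, were not called, at 0.16 ± 0.33, 0.02 ± 0.49 and 0.21 ± 0.38. Of 12 complement genes C1qc, a chain of the first component, and Cfd, the protease factor D, rose by 1.19 ± 0.27 and 0.93 ± 0.24. Neither was called without rat 55 or without rat 57, nor was Cfd without rat 45, 48 or 54, and the list count changed to 1 without rat 45, 48 or 54 and to 4 without rat 56.

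Reactive astrocyte genes fell in 7 of 17 cases (against 3.67% of all genes) and rose in 0, with a median of -0.46. Steap4, a metalloreductase induced by inflammation, had 3.58, 4.52, 3.32 and 3.58 at 8 d, against 5.91, 6.32 and 6.55 at 6 h, a difference of -2.51 ± 0.20 (adjusted p = 7.2e-07), and its 8 d values too lay below the lower quartile of their arrays. S1pr3, a receptor of sphingosine-1-phosphate, had 7.80, 9.46, 8.02 and 8.46 at 8 d, against 9.79, 9.92 and 10.10 at 6 h, a difference of -1.50 ± 0.22 (adjusted p = 0.00055). Cp (ceruloplasmin), a copper-binding ferroxidase, fell by 1.41 ± 0.23, and Timp1, the inhibitor of matrix proteases, had 6.73, 9.09, 6.38 and 9.00 at 8 d, against 9.37, 9.51 and 9.79 at 6 h, a difference of -1.74 ± 0.51 (adjusted p = 0.046). The call of Timp1 was lost in 12 of 24 alternatives, among them leaving out any 1 of the 6 h rats, rat 54 or rat 56. Gfap, the intermediate filament of astrocytes, was not called, at 0.39 ± 0.17 (adjusted p = 0.18), and of the 16 general astrocyte genes 0 were called, with a median of -0.02. Without rat 56 that list held 2 higher genes and 1 lower.

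The oligodendrocyte lineage was lower in a few genes. Of 17 precursor genes 4 fell (against 3.67% of all genes), 0 rose, and the median was -0.21. Tnr (tenascin-R), Cspg4 (NG2) and the complement-like C1ql1 fell by 0.57 ± 0.11, 0.40 ± 0.10 and 0.43 ± 0.11. None was called in the fit of all 56 contralateral arrays or without rats 55 and 57. Cspg4 also lost its call without rat 54 or 55 and C1ql1 without rat 44, 45, 47, 54 or 57, and the list count was 1 without rat 54 and 2 without rat 44, 55 or 57. Of 19 mature oligodendrocyte genes Mal, Ugt8 and Cldn11 fell, a myelin proteolipid, an enzyme of galactolipid synthesis and a myelin tight junction protein. Mal had 11.07, 11.18, 11.36 and 11.19 at 8 d, against 11.62, 11.87 and 11.96 at 6 h, a difference of -0.64 ± 0.09 (adjusted p = 0.00028). Cldn11 differed by -0.40 ± 0.07 (adjusted p = 0.0022), and Ugt8 by -0.85 ± 0.14 (adjusted p = 0.0012), of which a dim second probe set showed 0.07. The other 16 were not called. Without rat 56 the list held 5 lower genes, and in the fit of all 56 arrays 1.

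Neuronal lists gave few calls. Of 21 pan-neuronal, 16 cortical and hippocampal, 11 interneuron and 19 striatal genes 0 were called, while without rat 56 these lists held 3, 2 and 1 lower genes and 1 higher striatal gene, and leaving out rat 44 or 49 gave 1 pan-neuronal call. All 19 striatal genes had a positive difference (0.19 to 1.27, median 0.59), without a call, beside the spread of that list over the 6 h arrays. Among 11 thalamic genes Lef1, a Wnt pathway factor, was higher by 0.80 ± 0.23 and lost its call in 16 of 24 alternatives, among them leaving out rat 45, 46, 49, 54, 55 or 57. Of 17 immature neuron genes Dpysl5 rose by 0.68 ± 0.13, and Cd24 and Neurod1 fell by 0.34 ± 0.07 and 0.79 ± 0.22. Neurod1 lost its call without rat 44, 45, 49, 54, 55 or 57. Without rats 55 and 57 none was called, and without rat 56 the list held 8 calls. Choroid plexus (19), B and plasma cell (8) and red blood cell (5) genes gave 0 calls, and of 9 ependymal genes Rsph1, of motile cilia, rose by 0.69 ± 0.13. Without rat 56 there was 1 lower choroid plexus gene.

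Immediate early genes fell in 8 of 23 cases (against 3.67% of all genes) and rose in 0, with a median of -0.36. Egr1, Ier2 and Jun, transcription factors and a regulator induced within minutes of a stimulus, fell by 0.60 ± 0.11, 0.76 ± 0.14 and 0.72 ± 0.14, with no overlap between groups. Egr1 had 11.79, 12.12, 12.18 and 12.05 at 8 d, against 12.55, 12.61 and 12.77 at 6 h. In the fit of all 56 arrays the list held 1 call, and without rat 54 it held 3. Glucocorticoid-responsive genes fell in 5 of 21 cases. Cebpd, a transcription factor of the acute phase, had 7.67, 8.81, 7.64 and 8.37 at 8 d, against 9.50, 9.57 and 9.76 at 6 h, a difference of -1.47 ± 0.20 (adjusted p = 0.00028), and Mt2A, a metal-binding metallothionein, had 10.82, 12.06, 10.61 and 11.25 at 8 d, against 12.32, 12.49 and 12.63 at 6 h, a difference of -1.31 ± 0.19 (adjusted p = 0.00065). Other probe sets of Cebpd differed by -2.0 and by -0.08, the latter dim and not called. Circadian clock genes rose in 2 and fell in 5 of 18 cases. The clock repressor Nr1d1 rose by 0.58 ± 0.08, Per3 rose by 0.92 ± 0.17 and Rora fell by 0.91 ± 0.17; dim second probe sets showed -0.03 for Per3 and 0.39, called the opposite way, for Rora. Without rats 55 and 57 neither Per3 nor Rora was called and this list held 1 higher and 1 lower gene, without rat 57 alone it held 2 and 2, and the hour of day at resection is not given in the sources used here.

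Mitosis genes had a median of 0.75 and all 28 a positive difference, but only Prc1 and Aurkb, of the dividing spindle, were called, against 4.05% higher of all genes. Prc1 had 6.99, 7.68, 7.14 and 8.51 at 8 d, against 5.91, 6.49 and 6.57 at 6 h, a difference of 1.23 ± 0.35 (adjusted p = 0.04). Aurkb had 7.03, 6.77, 6.94 and 7.35 at 8 d, against 6.02, 6.29 and 6.41 at 6 h, a difference of 0.77 ± 0.22 (adjusted p = 0.046). Neither overlapped, and rat 57 was the highest in both. Leaving out any 1 of the 6 h rats, rat 55 or rat 57 left 0 calls, leaving out rat 54 left 1, and leaving out rat 56 gave 7. Cdkn2a, a tumour-suppressor transcript of the 9L list, had 4.32, 4.75, 4.39 and 6.73 at 8 d, against 3.91, 4.25 and 4.81 at 6 h, high in rat 57 alone. In unirradiated contralateral brain it averaged 5.65 ± 1.45 at 8 d (SD, n = 4) and 4.30 ± 0.21 at 6 h (SD, n = 5). Apart from that of rat 57, its BB values of both times lay below the lower quartile of their arrays, as did the unirradiated 6 h mean. Differences among these low values are uncertain. Gbp2 and Timp1, also on the interferon and astrocyte lists, were the 2 lower genes of the 11 on the 9L list, and Gbp2 alone was lower without any 1 of the 6 h rats or rat 54. Of 26 replication genes Pola2, a subunit of DNA polymerase alpha, fell by 0.42 ± 0.09, a call lost without rat 57, while without rat 56 the list held 3 higher and 2 lower genes. The main count was near the 3.67% of all genes that were lower and says nothing about the list. Of 25 matrix genes Lum (lumican) rose by 1.28 ± 0.25 (not called without rats 55 and 57), Lamc1, a laminin chain, fell by 0.66 ± 0.16 (not called without rat 54 or 55) and Timp1 fell, and Lum, Mgp and Islr were among 4 called of 15 meningeal and fibroblast genes. Mgp, an inhibitor of calcification, fell by 0.70 ± 0.16 and Islr, a secreted stromal protein, rose by 0.53 ± 0.14. Their calls were lost without rat 57, that of Islr also without rat 55. Without rat 54, 1 matrix gene was called, and without rat 55 or 57 the meningeal list held 2 calls or 1. Small called differences, at most 0.51 in size, were also found among 20 cholesterol synthesis genes (2 higher, Mvd among them, and 2 lower, Idi1 and Cyp51) and 27 oxidative phosphorylation genes (Cox7c and Uqcrc2 lower). Of all genes 7.72% were called, and the oxidative phosphorylation count was near that share. The cholesterol list held 2 calls without rat 44, 45 or 57 and 1 without rat 54. The oxidative phosphorylation list held 1 without rat 45, 54 or 57, 0 without rat 55 and 2 higher and 8 lower genes without rat 56. Of 20 heat shock and unfolded protein response genes 0 were called, and 2 without rat 56.

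The time change after BB was next set against that of tumour-bearing rats without irradiation, as a difference of differences over 56 contralateral arrays. The processing notes of the BB and unirradiated arrays differ. A shift of level that is equal at both times cancels here, while a difference in scale would not and was not tested. This fit called 386 probe sets. A fit of only the 19 arrays of the groups compared called 879. The array of untreated 48 h rat 18 had the highest median and the highest lower quartile of intensity among the 56. Leaving it out, chosen after seeing the data, gave 825, among them all 386. A gene without a call in this test is therefore not shown to change equally with and without irradiation. In unirradiated rats 148 genes were higher (1.04%) and 55 lower (0.387%) at 8 d. The BB change exceeded the unirradiated change in 88 genes (0.619%) and fell short of it in 146 (1.03%). Of the 1098 genes called after BB, 162 had this difference called, 70 higher and 92 lower, in each case in the direction of the BB change. The BB change is part of this difference and comes from the same arrays, so that agreement was favoured in advance. Cytokine and adhesion genes had 6 of 25 called lower: Ccl2 at -5.88 ± 0.61 (adjusted p = 2.4e-09), Sele at -4.21 ± 0.30 (adjusted p = 1.4e-14), and Ccl7 at -2.73 ± 0.58 (adjusted p = 0.0052), Birc3 at -2.28 ± 0.29 (adjusted p = 3.3e-07), Icam1 at -2.23 ± 0.39 (adjusted p = 0.00036) and Nfkbia at -1.86 ± 0.32 (adjusted p = 0.00024). Without irradiation Ccl2 averaged 6.14 ± 0.64 at 8 d (SD, n = 4) and 4.61 ± 0.22 at 6 h (SD, n = 5), and Sele 3.52 ± 0.12 at 8 d (SD, n = 4) and 3.50 ± 0.20 at 6 h (SD, n = 5). Vcam1, Tnfaip3, Nfkb2, Cxcl1 and Cxcl2 did not pass this test, with differences of -1.63 (Cxcl1) to -0.93 (Tnfaip3).

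Interferon-response genes had 7 of 38 called lower, with Gbp2 at -4.86 ± 0.53 (adjusted p = 7e-09), Ifit3 at -2.26 ± 0.51 (adjusted p = 0.0096) (not called without rat 54), Cxcl11 at -4.74 ± 0.65 (adjusted p = 2.5e-06) and Cxcl10 at -4.65 ± 0.58 (adjusted p = 3e-07). Without irradiation Gbp2 rose, and averaged 7.66 ± 0.98 at 8 d (SD, n = 4) and 5.80 ± 0.40 at 6 h (SD, n = 5). Of p53 targets 8 of 25 were called lower, among them Fas at -1.92 ± 0.28 (adjusted p = 1.2e-05), Cdkn1a at -1.77 ± 0.32 (adjusted p = 0.00044), Aen at -1.03 ± 0.19 (adjusted p = 0.00056) and Mdm2 at -0.71 ± 0.17 (adjusted p = 0.014); Ccng1 was not, at -0.87 ± 0.41 (adjusted p = 0.4). Mgmt was called higher at 1.42 ± 0.21 (adjusted p = 2e-05). Endothelial genes had 8 of 20 called higher and 0 lower, while their median change without irradiation was -0.05 and 0 were called there. Among them were Slco1a4 at 2.57 ± 0.38 (adjusted p = 1.3e-05), Tek at 1.56 ± 0.25 (adjusted p = 5.1e-05), Slco1c1 at 1.34 ± 0.24 (adjusted p = 0.00046) and Abcg2 at 1.42 ± 0.31 (adjusted p = 0.0077). Slco1a4 averaged 10.15 ± 0.24 at 8 d (SD, n = 4) and 10.57 ± 0.18 at 6 h (SD, n = 5) without irradiation. Reactive astrocyte genes had 7 of 17 called lower and glucocorticoid-responsive genes 10 of 21, with Mt2A of the second list at -2.91 ± 0.30 (adjusted p = 1.5e-09), which rose by 1.61 without irradiation.

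Of 10 homeostatic microglia genes 0 had the difference called, P2ry12 standing at 1.53 ± 0.57 (adjusted p = 0.23), and RT1-Da, RT1-Db1 and RT1-Bb were at -1.50, -0.89 and -0.97 without a call, beside unirradiated rises of 3.14, 2.87 and 2.92. Fcgr3a was at 0.91 ± 0.44 (adjusted p = 0.42). Given how the count of calls depends on the arrays in the fit, these missing calls do not show equal change. Mrc1 and Stab1 were the 2 called of 16 macrophage genes, at 1.38 ± 0.36 (adjusted p = 0.034) and 1.47 ± 0.31 (adjusted p = 0.0039), and Mrc1 lost that call without untreated rat 2, 3, 4, 28 or 29 or BB rat 45, 46, 48, 54 or 55. Mitosis genes had a median of 0.75 after BB and 0.72 without irradiation, and 0 of 28 differed in this test. On the arrays of unirradiated rats at 8 d the mitosis mean was 5.74 in rat 28, 6.12 in rat 39, 6.58 in rat 29 and 7.37 in rat 30.

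**Figure D4:**
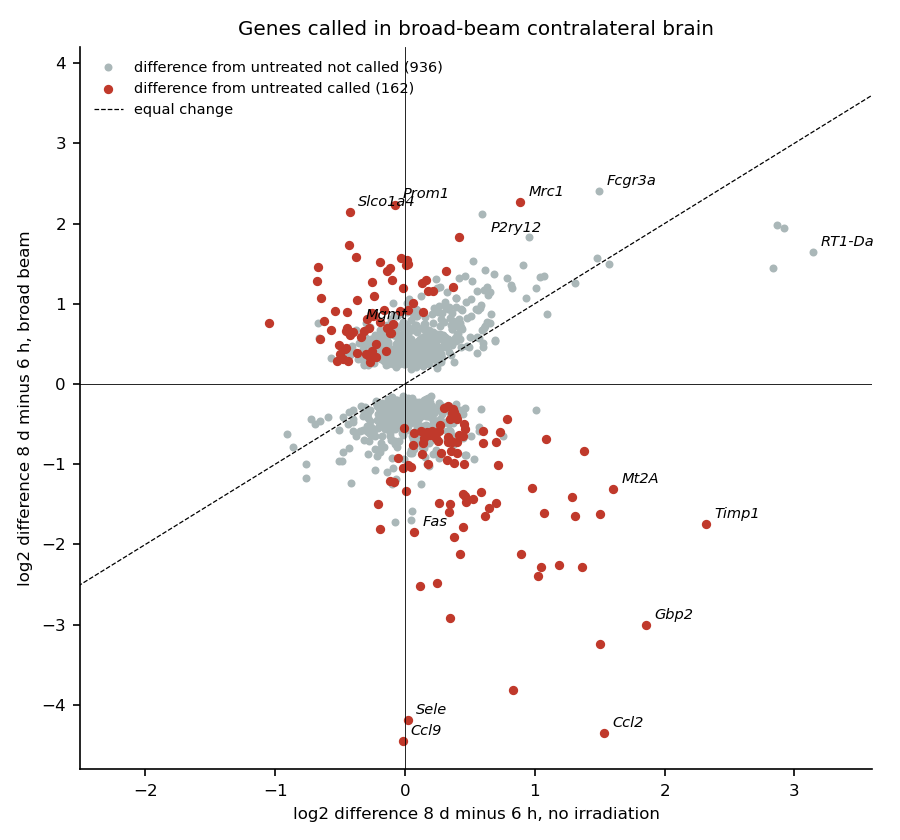
Log2 difference, 8 d minus 6 h, after broad beam (vertical) and without irradiation (horizontal) for the 1098 genes called after broad beam. Red points had the difference of differences called (162), the dashed line marks equal change; Ccl9, Sele and Fas fall along the line of no unirradiated change, and RT1-Da lies right of the dashed line.

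The same BB arrays were then set against MRT, the other beam geometry. Relative to the change after MRT, 19 genes were higher (0.134%) and 89 lower (0.626%). After MRT itself, 1105 genes were higher (7.77%) and 533 lower (3.75%) at 8 d. Cytokine and adhesion genes had 8 of 25 called higher and 0 lower. Cxcl2 fell by 1.18 after BB and by 3.85 after MRT, a difference of 2.66 ± 0.50 (adjusted p = 0.0028), and its MRT arrays averaged 4.90 ± 0.28 at 8 d (SD, n = 6) and 8.74 ± 1.32 at 6 h (SD, n = 9). The MRT mean of 8 d lay below the lower quartile of those arrays (intensities of 37 to 38), so the size of this difference is uncertain. Ccl20 was at 2.29 ± 0.44 (adjusted p = 0.0034), Cxcl1 at 1.98 ± 0.45 (adjusted p = 0.02), Il1b at 1.96 ± 0.45 (adjusted p = 0.02) and Il6 at 1.61 ± 0.30 (adjusted p = 0.0025). The calls of Cxcl1 and Il1b were lost without rat 57, that of Il1b also without rat 55, and those of Cxcl1, Cxcl2, Ccl20 and Il1b in a fit of the 25 arrays of these groups alone, where 1 gene of the list was called. The list held 4 higher genes without rat 57, 5 higher and 1 lower without rat 55 and 3 higher and 1 lower without both, and 5 with the dimmest 30 percent of probe sets left out. On the MRT arrays of 6 h, rat 7 stood apart with a cytokine list mean of 7.03, against 8.18 to 8.75 in the other 8 rats, and rats 7 and 10 had neutrophil list means of 5.36 and 5.10, against 6.15 to 6.65. Without MRT rat 7 the cytokine list held 9 higher genes, without MRT rat 10 it held 8, and without any other single MRT array 6 to 8. Ccl2 and Sele did not pass, at -1.43 ± 0.55 (adjusted p = 0.47) and 0.30 ± 0.27 (adjusted p = 0.96). Phagocyte activation genes had 6 of 27 called lower, among them Gpnmb at -2.51 ± 0.33 (adjusted p = 3.4e-06), Lgals3 at -2.01 ± 0.38 (adjusted p = 0.0028) and Spp1 at -2.38 ± 0.57 (adjusted p = 0.034), and the microglial Fcrl2 was at -1.91 ± 0.24 (adjusted p = 9.8e-07). Gpnmb averaged 11.74 ± 0.20 at 8 d (SD, n = 6) and 9.07 ± 0.42 at 6 h (SD, n = 9) after MRT. Of p53 targets 5 of 25 were called lower, Mdm2 at -0.71 ± 0.15 (adjusted p = 0.0094) and Fas at -1.07 ± 0.25 (adjusted p = 0.026) among them, and Mgmt was at -1.11 ± 0.19 (adjusted p = 0.0007). Without BB rat 44, 47, 54 or 56 or MRT rat 32 or 37 the phagocyte list held 3, without BB rat 44 or 54 or MRT rat 35 the p53 list held 2, and without BB rat 55, or rats 55 and 57, it held 3. Of 20 endothelial genes 0 had the difference called, and 1 lower without BB rat 45 or MRT rat 10. Of 38 interferon-response genes 0 had it called, while 7 were lower without rats 55 and 57 and 1 without either of them alone or in the fit of 25 arrays. The call of Fas was lost without BB rat 44, 54, 55 or 57 or MRT rat 35, and that of Spp1 without BB rat 44, 46, 47, 49, 54, 55 or 56 or MRT rat 11, 14, 32, 35 or 37. A shift of level between MRT and BB arrays that is equal at both times cancels in this test. A difference in the scale of their intensities would not cancel and was not tested.

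The other times after BB place the 8 d values. These comparisons share the 6 h arrays, so their values only stand side by side. At 48 h against 6 h, 409 genes were higher (2.88%) and 797 lower (5.61%), and at 15 d against 6 h, 578 higher (4.07%) and 308 lower (2.17%). Of 25 cytokine and adhesion genes 17 were lower at 48 h, 15 at 8 d and 11 at 15 d. Sele averaged 7.88 ± 0.34 at 6 h, 3.58 ± 0.12 at 48 h, 3.69 ± 0.24 at 8 d and 3.78 ± 0.10 at 15 d (SD). Ccl2 averaged 10.74 ± 0.14 at 6 h, 5.79 ± 0.24 at 48 h, 6.39 ± 1.78 at 8 d and 7.56 ± 1.23 at 15 d (SD), so its arrays of 8 d and 15 d spread widely. Interferon-response genes were lower in 18, 8 and 8 of 38 cases at 48 h, 8 d and 15 d, and higher in 0, 0 and 2. Gbp2 averaged 11.23 ± 0.20 at 6 h, 7.70 ± 0.29 at 48 h, 8.23 ± 1.30 at 8 d and 9.37 ± 1.08 at 15 d (SD).

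Targets of p53 were lower in 8, 12 and 12 of 25 cases at 48 h, 8 d and 15 d. Cdkn1a averaged 10.80 ± 0.24 at 6 h, 10.82 ± 0.25 at 48 h, 10.12 ± 0.20 at 8 d and 9.40 ± 0.07 at 15 d (SD), and was not called at 48 h (adjusted p = 0.97). Fas averaged 8.06 ± 0.10 at 6 h, 7.42 ± 0.11 at 48 h, 6.21 ± 0.26 at 8 d and 6.36 ± 0.25 at 15 d (SD). Endothelial genes were higher in 11, 10 and 12 of 20 cases. Slco1a4 averaged 8.67 ± 0.40 at 6 h, 11.05 ± 0.11 at 48 h, 10.81 ± 0.35 at 8 d and 10.45 ± 0.19 at 15 d (SD), at its highest level already at 48 h. Homeostatic microglia genes were higher in 3, 6 and 6 of 10 cases and macrophage genes in 1, 6 and 10 of 16. P2ry12 averaged 6.59 ± 0.34 at 6 h, 8.60 ± 0.21 at 48 h, 8.71 ± 0.11 at 8 d and 8.57 ± 0.29 at 15 d (SD), and Fcgr3a 6.37 ± 0.27 at 6 h, 7.30 ± 0.17 at 48 h, 8.77 ± 1.22 at 8 d and 9.58 ± 0.96 at 15 d (SD). Mitosis genes were higher in 0, 2 and 24 of 28 cases. At 15 d the mitosis list averaged 6.12, 7.48, 8.28 and 6.97 in rats 58, 59, 60 and 61. The list of genes typical of 9L tumours averaged 6.21, 7.79, 8.59 and 7.19 in these rats, with 6 of its 11 genes higher than at 6 h, 1 lower and a median of 1.21. The part of tumour cells in the 15 d values was not tested.

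**Figure D5:**
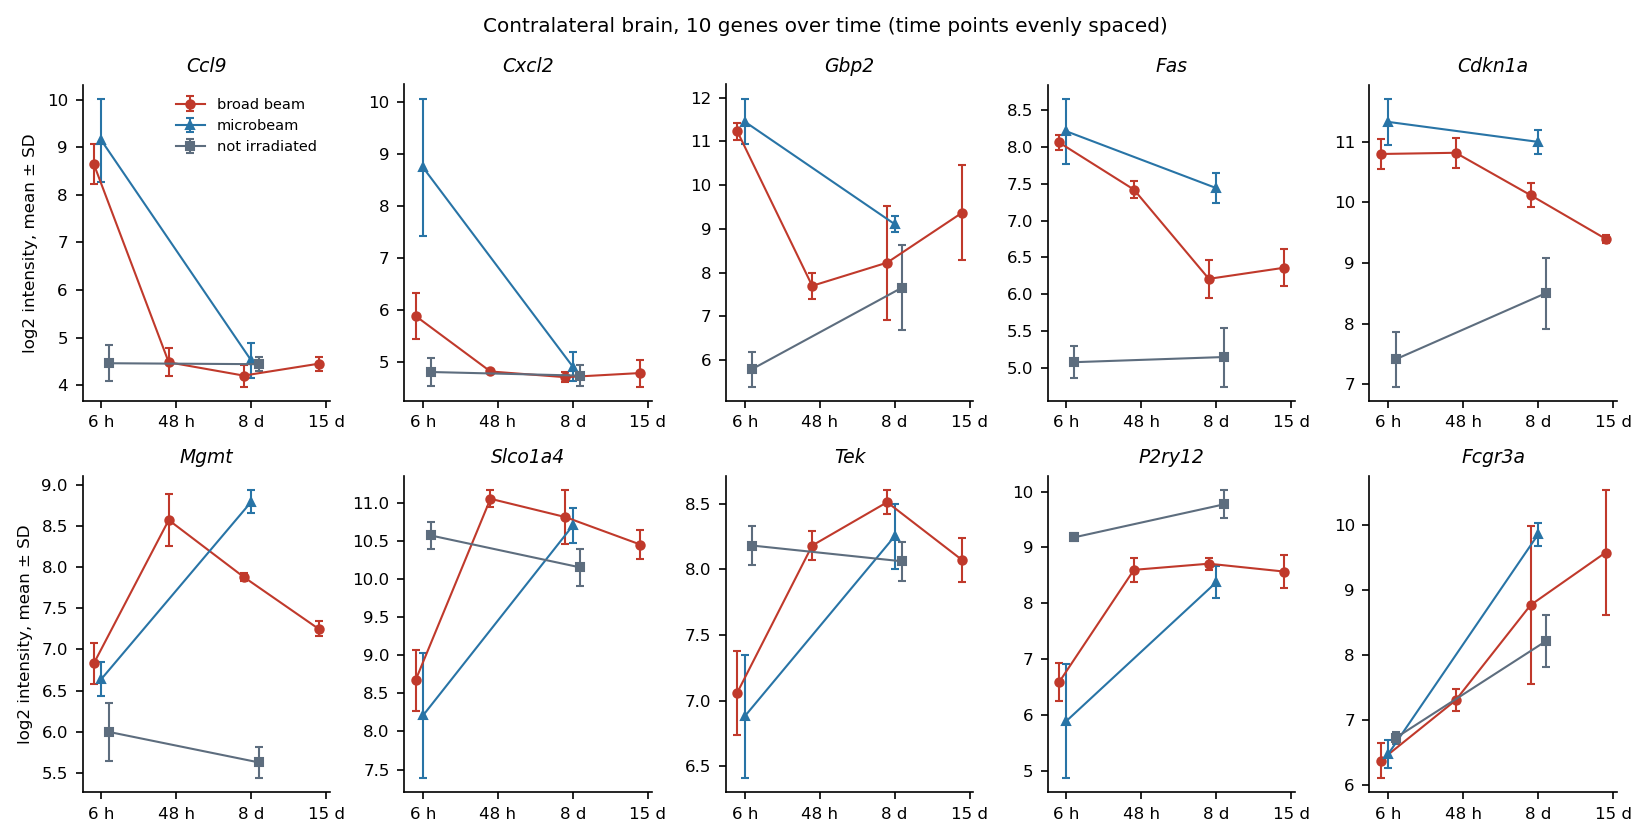
Mean log2 intensity ± SD of 10 genes in contralateral brain at 6 h, 48 h, 8 d and 15 d after broad beam (circles), and at 6 h and 8 d after microbeams (triangles) and without irradiation (squares). After broad beam Ccl9 and Slco1a4 reach their 8 d level by 48 h, Cdkn1a and Fas are lower at 8 d than at 48 h, and Fcgr3a has its highest mean at 15 d with a wide spread at 8 d and 15 d.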

How the data were processed

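Gene expression was measured on 115 Affymetrix rat arrays of the series, of which 56 hold contralateral brain. The deposited values are whole-number intensities (7 to 27837); per the submitters' processing notes the BB arrays were summarised with RMA in Affymetrix Expression Console, and the notes of the other arrays also name MAS5. Rounding leaves steps of up to 0.193 log2 at the lowest intensity, and the number of arrays limits the precision. The log2 of the deposited intensities was taken with no further normalization. Of 31099 probe sets, 57 controls were left out and 31042 tested. Through the platform annotation 20826 had 1 gene, 436 several and 9780 none, and the brightest probe set over all arrays stood for each of 14217 genes.

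The 8 d and 6 h groups were compared with limma 3.58.1 (R 4.3.3), fitted on the 17 BB contralateral arrays (6, 3, 4 and 4 at 6 h, 48 h, 8 d and 15 d) with an intensity trend and Benjamini-Hochberg adjustment. Differences of time changes were fitted on all 56 contralateral arrays. The labels name a rat for each array, and p-values measure the spread between these rats. Each fit takes a common spread per probe set over all its groups. Ccl2, Gbp2 and Fcgr3a spread more between rats at 8 d than at 6 h, so for such genes the standard error may be too small. The code was tested on simulated data. The members and the 38 gene lists (667 of 763 genes measured) were chosen with earlier results of these data known. Genes named are up to 12 largest rises and falls without overlap and up to 3 genes per list, and 23 of the 107 genes named were chosen after their values were seen. Alternatives changed the arrays, the scaling, the filter, the weights and covariates. Figures were drawn with matplotlib 3.10.9.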

Additional observations from a re-analysis of the deposited data

Results flagged for a closer look

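Single arrays stood far from the rest of their group in 23 of 290 groups tested, where chance flags about 5 percent, 1 in 20. Among 6 h rats, rat 45 was low in Tek (6.44), Abcb1a (6.69), Angpt2 (8.93), Cldn5 (9.11), Lamc1 (9.52), Mgp (9.20) and the B and plasma cell list (5.36). Rat 46 was high in Vcam1 (11.28) and low in Icam1 (8.80) and Ptges (7.60), rat 44 was high in Prom1 (7.26), and rat 47 was high in Stab1 (5.29), Gpnmb (10.00) and Lgals3 (9.67). Among 8 d rats, rat 54 was low in Sele (3.32), C1ql1 (5.58) and Idi1 (9.63) and high in Pecam1 (7.33). All 8 d values of Sele lay below the lower quartile of their arrays, where whole-number rounding makes large log2 steps, so that flag is uncertain. Rat 56 was high in Tnr (8.85), Rora (9.20), Uqcrc2 (12.28), the pan-neuronal list (11.99) and the red blood cell list (6.98).

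The time change after BB differed from that of unirradiated rats in 47 of the 107 genes named, against 234 of 14217 genes in all (1.65%). Most named genes were picked by their BB change, which is part of this difference, so their count is no independent support. The difference, BB change minus unirradiated change in log2, was -5.88 for Ccl2, and for other inflammatory genes Ccl9 -4.43, Sele -4.21, Pla1a -3.65, Maff -3.33, Ptges -3.26, Ccl5 -3.01, Ccl7 -2.73, Birc3 -2.28, Icam1 -2.23 and Nfkbia -1.86. Interferon-response genes stood at -4.86 (Gbp2), -4.74 (Cxcl11), -4.65 (Cxcl10), -2.26 (Ifit3) and -1.72 (Ifitm3), while RT1-T24-4 was at 1.81. Targets of p53 were at -1.92 (Fas), -1.77 (Cdkn1a), -1.03 (Aen) and -0.71 (Mdm2), with Mgmt at 1.42. Endothelial genes were at 2.57 (Slco1a4), 1.56 (Tek), 1.42 (Abcg2) and 1.34 (Slco1c1), and pericyte and smooth muscle genes at 1.14 (Abcc9) and -1.09 (Des). Genes outside those lists were at 2.32 (Prom1), 2.17 (Nxpe1), 1.96 (Slc40a1) and -3.42 (Angpt2). Myeloid genes were at 1.47 (Stab1), 1.38 (Mrc1), -1.76 (Gpnmb) and -2.95 (Cd14). Glial and stress genes were at -4.06 (Timp1), -2.70 (Cp), -2.63 (Steap4), -1.84 (S1pr3), -0.80 (Cspg4), -2.91 (Mt2A), -1.95 (Cebpd) and -1.42 (Jun). Lum was at 1.96, Lamc1 at -0.99 and Rsph1 at 0.83. The calls of Jun and Lamc1 were lost without untreated rat 30, and that of Cspg4 without untreated rat 1, 5, 29 or 30 or BB rat 55. Rsph1 lost its call in 14 alternatives.

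Against the change after MRT 15 of the genes named differed, and 108 of 14217 genes in all (0.76%), with the same limit from how the named genes were picked. Those above it were Cxcl2 (2.66), Ccl20 (2.29), Cxcl1 (1.98), Il1b (1.96) and Il6 (1.61). Those below it were Gpnmb (-2.51), Spp1 (-2.38), Lgals3 (-2.01), Fcrl2 (-1.91), Cp (-1.61), Mt2A (-1.23), Mgmt (-1.11), Fas (-1.07), Cd24 (-0.81) and Mdm2 (-0.71). Cd24 lost its call in 19 alternatives, among them leaving out any 1 of the BB 6 h rats, BB rat 54, 55 or 57 or MRT rat 7, 10, 12, 14, 32, 34, 35, 37 or 38, and Mt2A lost its call without BB rat 54 or 56.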

How the results depend on the processing

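Of 31042 probe sets, 2130 were called at 8 d against 6 h. The count was 759 with all 56 contralateral arrays in the fit, 5785 with array weights and 1235 with 1 probe set per gene, where fewer were tested. The fit of 56 arrays held that of untreated rat 18, whose median intensity was the highest. Whether calls lost in that fit depend on this array was not tested. In alternatives chosen after seeing the data it was 520 without rats 55 and 57, 1388 with the mitosis list mean as covariate and 1158 with the striatal list mean. Leaving out 1 array gave 853 to 4812, with 1335 without rat 45, 881 without rat 54, 1136 without rat 55, 4812 without rat 56 and 853 without rat 57. For 48 h against 6 h, 2274 were called, 687 in the fit of 56 arrays and 587 to 2410 without 1 array (1170 without rat 50, 780 without rat 51, 587 without rat 52, 1456 without rat 46). For 15 d against 6 h, 1288 were called and 672 to 1566 without 1 array (672 without rat 59, 688 without rat 60). The BB change minus the unirradiated change had 386 calls, 879 in a fit of its 19 arrays, 825 without the array of untreated rat 18 (chosen after seeing the data) and 241 to 406 without 1 array (241 without rat 54, 256 without untreated rat 30). The unirradiated change had 368, and 162 to 356 without 1 array (220, 196 and 162 without rats 4, 29 and 30). The BB change minus the MRT change had 155, and 84 to 194 without 1 array (84 without BB rat 54, 101 without BB rat 56). Leaving out the 6 h arrays for the 48 h and 15 d counts, and the MRT arrays, was chosen after seeing the data. Spp1, not called, turned to -1.08 with the mitosis covariate. For each of these values the cause was not tested. No paired analysis was possible because the 8 d and 6 h groups share no rat number.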
